A study of Saccharomyces cerevisiae with 9 samples.

Results

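KF7 is 1 of 3 Saccharomyces cerevisiae strains whose genes were read on microarrays after growth with succinic acid, an intermediate of the citric acid cycle. Its dose series holds 3 of the 9 arrays, chosen by the strain in the labels: 1 array each at 0, 20 and 60 g/L of added succinic acid. The other 6 arrays hold the strains NBRC1958 and NBRC2018 at the same 3 doses and serve here as the comparison. All 9 cultures shared YPD, a rich glucose medium, at 35 °C with shaking at 200 rpm for 6 hours, and total RNA was labelled with biotin. Every strain and dose had 1 array, so a difference between KF7 arrays has no replicate and is given as a description. The labels give no genotype, ploidy, cell density or remaining glucose for any culture.

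Organic acids that enter a yeast cell release protons in the cytosol, and cells meet them with export pumps, with chaperones under the heat shock factor Hsf1 and with stress genes under Msn2 and Msn4. Succinate is also a substrate of respiration, and the genes that let yeast use acids, ethanol or lactate as carbon (the glyoxylate cycle and gluconeogenesis) are kept off by glucose and come on as it runs out. The level of such genes in an untreated culture is therefore part of what any dose comparison is set against.

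Values are signals, the linear intensity that the authors deposited for each probe set, and differences are log2 of the signal plus 16. A log2 difference of 1 is a 2-fold difference and one of 0.5 is a 1.41-fold difference. Of 5449 genes on the array, 4359 were compared after the lowest 20% by mean level (under a signal of 118) were left out. Median signals over genes lay between 294 and 311 on the 9 arrays, and the 95th percentile of probe sets made for another organism lay between 14.7 and 15.9. Markers of other cell states were low in KF7: the 11 genes of haploid mating had signals of 9.07 to 74.9 and none was above the level filter. Of 8 meiosis genes, IME2, a kinase of early meiosis, was above it and had signals of 94.97, 93.2 and 302 in KF7, 82.9, 109.9 and 276 in NBRC1958 and 97.98, 110.3 and 151 in NBRC2018 at 0, 20 and 60 g/L. IME2 was highest at 60 g/L in every strain. Signals in 3s below are in this order of dose.

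The response of KF7 at 60 g/L was mostly to higher levels and mostly came after 20 g/L. At 60 against 0 g/L, 97 genes (2.23%) reached a 2-fold higher level and 43 (0.986%) a 2-fold lower one. NBRC1958 had 161 higher (3.69%) and 127 lower (2.91%), and NBRC2018 had 103 higher (2.36%) and 68 lower (1.56%). The median size of the log2 difference over all genes was 0.211 in KF7, 0.323 in NBRC1958 and 0.219 in NBRC2018. KF7 at 60 against 20 g/L had 98 genes higher (2.25%) and 24 lower (0.551%).

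At 20 g/L the balance was the other way round in KF7. A 2-fold higher level was reached by 7 genes (0.161%) against 0 g/L, while 27 (0.619%) were at least 2-fold lower. NBRC1958 had 5 higher (0.115%) and 16 lower (0.367%), and NBRC2018 had 8 higher (0.184%) and 0 lower (0%). The median size of the 20 g/L difference was 0.168 in KF7, 0.130 in NBRC1958 and 0.0758 in NBRC2018.

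Of the 97 genes 2-fold higher at 60 g/L in KF7, 3 were already 2-fold higher at 20 g/L and 68 were within a log2 of 0.5 of the 0 g/L array there. Of the 43 lower genes, 9 were already 2-fold lower at 20 g/L and 24 were within 0.5. KF7 also had 14 genes that differed 2-fold at 20 g/L and were back within 0.5 of the 0 g/L level at 60 g/L, where both other strains had 0.

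Heat shock genes, most of them chaperones, were the list with the most higher genes at 60 g/L in KF7. Of 25 heat shock genes, 13 were at least 2-fold higher at 60 against 0 g/L in KF7 and 0 were lower. Their median log2 difference was 1.02 at 60 g/L and -0.035 at 20 g/L, where the median of all genes was -0.039 and 0.025. In NBRC1958 and NBRC2018, 17 and 10 were 2-fold higher at 60 g/L, with medians of 1.25 and 0.789. The course in KF7 was flat to 20 g/L, where 11 of the 25 genes were above their 0 g/L level, against 20 in NBRC1958 and 23 in NBRC2018.

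BTN2, a factor that gathers misfolded proteins, had signals of 439, 483 and 6248 in KF7, 1547, 2962 and 8000.1 in NBRC1958 and 306, 438 and 4739.6 in NBRC2018. SSA4, a stress-inducible Hsp70, had signals of 264, 292 and 3516 in KF7, 629.8, 1159 and 5152 in NBRC1958 and 373, 374 and 1277 in NBRC2018. Both were nearly level between 0 and 20 g/L in KF7 and highest in NBRC1958 at each dose. The log2 difference at 60 against 0 g/L in KF7 was 3.78 for BTN2 and 3.65 for SSA4. HSP78, the mitochondrial disaggregase, had signals of 743, 849.6 and 4323 in KF7, 1516, 2209 and 5598 in NBRC1958 and 517, 775 and 2425 in NBRC2018. APJ1, an Hsp40 co-chaperone, had signals of 246, 213 and 2014 in KF7, 570.4, 811 and 3781 in NBRC1958 and 137, 164 and 1086 in NBRC2018. At 20 g/L, APJ1 was slightly lower than at 0 g/L in KF7 and higher in both other strains. ZPR1, which helps fold the elongation factor eEF1A, had signals of 455, 888 and 3617 in KF7, 1244, 1931 and 4528 in NBRC1958 and 431, 477 and 2103 in NBRC2018 and was already near 2-fold higher at 20 g/L in KF7 (log2 difference 0.94).

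**Figure D1:**
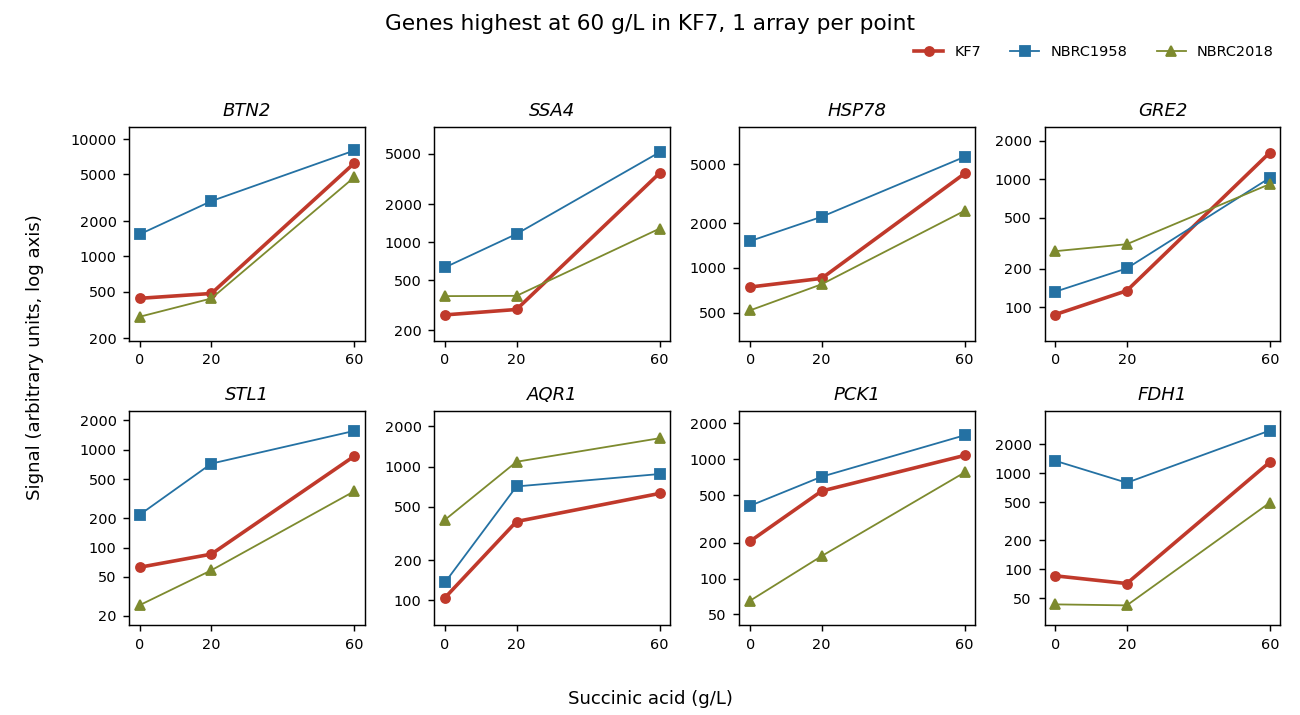
Signal (log axis) of 8 genes against succinic acid dose in KF7 (red circles), NBRC1958 (blue squares) and NBRC2018 (green triangles), 1 array per point. BTN2 and SSA4 in KF7 stayed at 483 and 292 at 20 g/L and reached 6248 and 3516 at 60 g/L, while AQR1 and PCK1 were already higher at 20 g/L.

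Single genes of acid export and of glycerol uptake also had large differences, while few members of their lists did. AQR1, a plasma membrane exporter linked to acid tolerance, had signals of 105, 389 and 630.0 in KF7, 136, 711 and 879.9 in NBRC1958 and 401, 1087 and 1629 in NBRC2018 and was higher at each step of dose in every strain. It was the 1 of 15 multidrug and acid exporter genes that was 2-fold higher in KF7 at either dose, and the list's median at 60 against 0 g/L was 0.347 in KF7, 0.42 in NBRC1958 and 0.62 in NBRC2018. PDR12, the pump for sorbate and other weak acids, had signals of 637, 687 and 676 in KF7, 416, 408 and 848 in NBRC1958 and 562, 471 and 832 in NBRC2018 and stayed near level in KF7. PMA1, the plasma membrane proton pump, had signals of 1968, 2128 and 2057 in KF7, 2236, 2455 and 2228 in NBRC1958 and 2277, 2349.7 and 2275 in NBRC2018, close to level in all strains.

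GRE2, a methylglyoxal reductase induced by several stresses, had signals of 87.6, 135 and 1621 in KF7, 132, 201 and 1028 in NBRC1958 and 274, 311 and 919 in NBRC2018. Its log2 difference at 60 against 0 g/L was 3.98 in KF7, against 2.82 in NBRC1958 and 1.69 in NBRC2018. KF7 had the lowest GRE2 signal of the strains at 0 g/L and the highest at 60 g/L. STL1, which takes up glycerol together with protons, had signals of 62.9, 85.6 and 862 in KF7, 217, 722 and 1560.4 in NBRC1958 and 25.8, 58.6 and 377 in NBRC2018. In KF7, STL1 was close to its 0 g/L level at 20 g/L, where NBRC1958 already had 722. GPP2, which makes glycerol from its phosphate, had signals of 2495, 3463 and 5453 in KF7, 4096, 5193 and 5681 in NBRC1958 and 3367, 4815 and 4833 in NBRC2018 and was 2-fold higher at 60 g/L in KF7 alone among the strains by value. Of 13 glycerol and osmotic stress genes, 3 were 2-fold higher in KF7 at 60 g/L, against 2 in each other strain.

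Several metabolic genes also had large differences. FDH1, formate dehydrogenase, had signals of 85.5, 71.1 and 1302 in KF7, 1343, 794 and 2771 in NBRC1958 and 43.1, 42.1 and 492 in NBRC2018. FDH1 at 0 g/L was low in KF7 and NBRC2018 and high in NBRC1958. TKL2, a transketolase of the pentose phosphate route, had signals of 246, 186 and 1222 in KF7, 829, 1064 and 2115 in NBRC1958 and 175, 233 and 433 in NBRC2018. Its difference of 2.24 in KF7 compares with 1.33 in NBRC1958 and 1.23 in NBRC2018, although its level stayed highest in NBRC1958. HXT5, a hexose transporter made in slow growth, had signals of 55.6, 39.5 and 274 in KF7, 108, 119 and 690.1 in NBRC1958 and 48.4, 51.1 and 243 in NBRC2018. YHR033W, whose function is not described here, had signals of 51.2, 96.5 and 1519 in KF7, 500.4, 1119 and 3603 in NBRC1958 and 41.4, 132 and 1284 in NBRC2018 and the largest difference in KF7, 4.51.

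The general stress genes under Msn2 and Msn4 responded less as a group. Of 22 such genes in KF7, 5 were 2-fold higher at 60 g/L, and the median log2 difference was 0.254. At 20 g/L the median was -0.345, with 20 of 22 genes below their 0 g/L level and 2 of them, DDR2 and PHM7, 2-fold lower. NBRC1958 had medians of -0.118 and 0.128 at 20 and 60 g/L, and NBRC2018 had 0.403 and 0.976, so the lower level at 20 g/L was seen in KF7 and NBRC1958 and not in NBRC2018. HSP12, a membrane-protecting stress protein, had signals of 3731, 3621 and 5789.9 in KF7, 6397, 6199.7 and 6919 in NBRC1958 and 1176, 2285 and 4617 in NBRC2018. NQM1, a transaldolase, had signals of 141, 117 and 538 in KF7, 585, 549 and 1129.8 in NBRC1958 and 99.1, 78.99 and 198 in NBRC2018, with a log2 difference at 60 against 0 g/L of 1.82 in KF7, 0.93 in NBRC1958 and 0.90 in NBRC2018.

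Among lower genes at 60 g/L the list with the most members made purines and one-carbon units, which feed nucleotide and methyl group synthesis. Of 20 such genes, 9 were 2-fold lower in KF7, 12 in NBRC1958 and 7 in NBRC2018, with medians of -0.834, -1.15 and -0.835. GCV1, a subunit of glycine cleavage, had signals of 1395, 945 and 315 in KF7, 1358, 1009 and 229 in NBRC1958 and 1178, 757 and 167 in NBRC2018. ADE1 of the purine pathway had signals of 1902, 1811 and 611 in KF7, 1649, 1261 and 395 in NBRC1958 and 1749, 1495 and 522 in NBRC2018, and SHM2, a serine hydroxymethyltransferase, had signals of 4131, 3699 and 1454 in KF7, 3861, 2559.6 and 1194 in NBRC1958 and 4082, 3277 and 1279 in NBRC2018. The 3 genes were lowest at 60 g/L in all strains. At 20 g/L the list's median was -0.010 in KF7, -0.165 in NBRC1958 and -0.171 in NBRC2018. In KF7 10 of the 20 genes were above and 10 below their 0 g/L level there, with a log2 difference of -0.55 for GCV1. TIR1, a cell wall mannoprotein, had signals of 1720.0, 3087 and 333 in KF7, 5479.6, 4837 and 1811 in NBRC1958 and 3368, 2732 and 666 in NBRC2018; it was highest at 20 g/L in KF7 and at 0 g/L in the other strains.

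The 97 higher genes of KF7 overlapped the other strains in good part. In NBRC1958, 56 of the 97 were also 2-fold higher at 60 g/L, in NBRC2018 44, and in both 34. Of the 43 lower genes, 21, 19 and 16 were also 2-fold lower. KF7 had the largest difference of the 3 strains in 60 of the 97 and 23 of the 43, which had been chosen for their size in KF7. Differences that were larger, absent or opposite in KF7 were then sorted by log2 differences at 60 against 0 g/L, each strain in turn taking the place of KF7.

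A level set between strains is read on the same probe set, and a strain's sequence difference from the probes cannot be told apart there from a difference in RNA. Whether KF7 responded unlike the other strains was tested with limma, with the spread taken from how far NBRC1958 and NBRC2018 departed from a shared dose response. At 60 against 0 g/L, 0 of 4359 genes (0%) passed at an adjusted p of 0.05, and the smallest adjusted p was 0.17. At an unadjusted p under 0.05 there were 261 genes, against 218 that chance would give. For 20 against 0 g/L and for the 0 g/L array against the other doses, 0 genes (0%) passed as well, with 174 and 201 at an unadjusted p under 0.05 and smallest adjusted p-values of 0.997 and 0.439. Differences in dose response between KF7 and the other strains are therefore values that did not pass this test. Differences in level between strains at 1 dose, and genes below the level filter, were not tested. Leaving out any 1 of the 6 arrays of NBRC1958 and NBRC2018 raised the count at 60 against 0 g/L. Each such fit has 1 residual degree of freedom. Without a 0 or 60 g/L array, that dose keeps 1 array of the other strains and its spread is not measured. Passing in such fits is therefore not read as support. The difference in response ran from -3.28 to -2.70 for ICL1, 2.87 to 3.61 for THI4 and -4.15 to -3.53 for YGR035C (log2). Leaving out either 20 g/L array gave the same fit for this contrast, so the 6 fits are not all distinct.

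**Figure D2:**
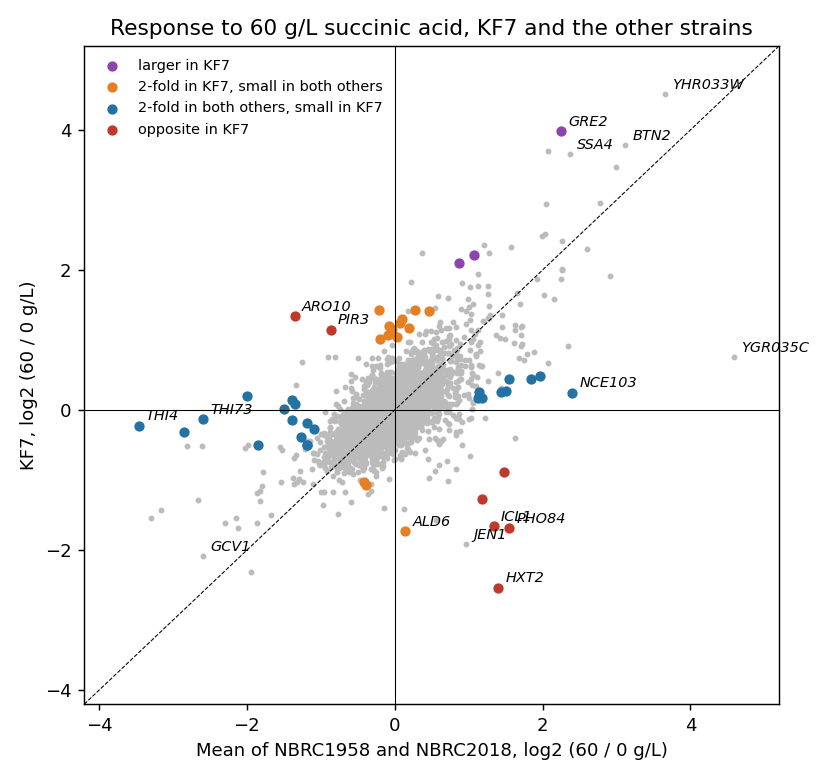
Log2 difference at 60 against 0 g/L in KF7 (vertical axis) against the mean of NBRC1958 and NBRC2018 (horizontal axis) for 4359 genes (grey), with the dashed line marking equal values. Coloured points are the 3 genes sorted as larger in KF7 (purple) and 15 that were 2-fold in KF7 with small differences in both others (orange). Also coloured are 23 that were 2-fold in both others with a small difference in KF7 (blue). The 7 in red had opposite signs past the size limits.

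By this sorting, few genes had a larger response in KF7, and more lacked one. Larger meant a difference at least 2-fold beyond both others, which themselves differed by a log2 of 0.5 or more in the same direction. It was found for 3 genes (GRE2, FIT1 and ARO9), against 11 with NBRC1958 in that place and 3 with NBRC2018. A 2-fold difference in KF7 with both others under 0.5 was found for 15 genes, 12 higher and 3 lower, against 51 for NBRC1958 and 16 for NBRC2018. A 2-fold difference shared by both other strains with KF7 under 0.5 was found for 23 genes, against 4 and 7. Opposite meant a log2 difference of at least 1 in KF7 and of 0.5 the other way in both others. A difference of at least 1 in both others with 0.5 the other way in KF7 also counted. By these limits, opposite differences were found for 7 genes, against 0 and 1. KF7 thus had the most genes of the absent and opposite kinds by count. These counts have no test.

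Most iron uptake genes had a higher level in KF7 than in the other strains at 0 g/L, and few differed 2-fold with dose. FIT1, a cell wall mannoprotein that holds iron-bearing siderophores, had signals of 132, 224 and 670.3 in KF7, 94.6, 102 and 238 in NBRC1958 and 45.1, 53.9 and 102 in NBRC2018. FIT3, of the same family, had signals of 1014, 1378 and 2767 in KF7, 667, 590.2 and 656 in NBRC1958 and 499.7, 696 and 374 in NBRC2018. FIT1 was higher at each step of dose in KF7 and in both others by less, and FIT3 was higher at each step in KF7 alone by value. FET3, the multicopper oxidase of iron uptake, had signals of 1802, 1981 and 1685 in KF7, 211, 225 and 266 in NBRC1958 and 357, 581 and 151 in NBRC2018. FET3 differed little with dose in KF7, and each of its KF7 signals was above every signal of the other strains. Over 18 iron genes, 2 were 2-fold higher and 1 lower at 60 g/L in KF7, against 4 and 1 in NBRC1958 and 0 and 2 in NBRC2018. SIT1, a siderophore transporter, differed by 0.86 in KF7 and by 1.19 in NBRC1958. In level, 14 of the 18 KF7 signals were above both other strains at 0 g/L, against 1029 of all 4359 genes. FIT2, of the FIT family, was below the level filter, outside these counts and outside the rule for named genes. Its log2 differences at 60 against 0 g/L were 2.42 in KF7, 0.66 in NBRC1958 and 0.31 in NBRC2018. Of 24 iron genes on the array 18 were compared, and FIT2 alone is described here from below the filter. The 1 lower gene was FET4, a low-affinity iron transporter, with signals of 479, 702 and 160.3 in KF7, 847, 1037 and 618 in NBRC1958 and 870.4, 1107 and 403 in NBRC2018.

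Genes for using poor nitrogen sources, which nitrogen catabolite repression keeps low in rich medium, were higher at 60 g/L in KF7. Of 15, 7 were 2-fold higher, with a median of 0.893, against 5 in NBRC1958 (0.724) and 1 in NBRC2018 (0.034). DAL7, a malate synthase of allantoin use, had signals of 203, 188 and 576 in KF7, 556, 342 and 703 in NBRC1958 and 97.5, 92.7 and 115 in NBRC2018. DAL2, allantoicase, had signals of 126, 115 and 335 in KF7, 142, 119 and 173 in NBRC1958 and 95.4, 98.9 and 91.1 in NBRC2018, and MEP2, the high-affinity ammonium permease, had signals of 442, 523 and 1239 in KF7, 152, 196 and 367 in NBRC1958 and 98.6, 94.3 and 90.5 in NBRC2018. In KF7 all 3 were near their 0 g/L level at 20 g/L and highest at 60 g/L. GAT1, an activator of these genes, had signals of 295, 367 and 639 in KF7, 325, 368 and 329 in NBRC1958 and 201, 186 and 172 in NBRC2018 and was 2-fold higher at 60 g/L in KF7 while both others were near level. A further 7 genes of the list were below the level filter, with log2 differences of 0.59 to 2.27 at 60 against 0 g/L in KF7. The highest was DAL3, ureidoglycolate lyase. Values of these 7 in the other strains are not given here, so they make no comparison between strains.

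Genes of aromatic amino acid breakdown by the Ehrlich pathway were low in KF7 and came closer to the other strains at 60 g/L. ARO10, a decarboxylase of that pathway, had signals of 94.3, 78.7 and 263 in KF7, 882, 463 and 202 in NBRC1958 and 666, 877 and 416 in NBRC2018. ARO9, the aminotransferase before it, had signals of 88.4, 90.5 and 434 in KF7, 734, 770.1 and 1524 in NBRC1958 and 549.6, 776 and 902 in NBRC2018. Both were several-fold below the other strains in KF7 at 0 and 20 g/L, and at 60 g/L ARO10 lay between the others while ARO9 was still below both. The log2 difference of ARO10 at 60 against 0 g/L was 1.34 in KF7, -2.04 in NBRC1958 and -0.66 in NBRC2018 (limma p for the difference 0.00378, adjusted 0.392).

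A few cell wall and cell cycle genes had a like course, but their lists did not move as a whole. Of 21 cell wall integrity genes, 2 were 2-fold higher and 0 lower at 60 g/L in KF7 (median 0.083), and of 21 cell cycle genes, 2 were higher and 1 lower (median -0.17). PIR3, a cell wall protein, had signals of 443, 411 and 999.6 in KF7, 1362, 939 and 625 in NBRC1958 and 1576, 1762 and 1011 in NBRC2018, lowest of the strains in KF7 at 0 and 20 g/L. GSC2, an alternative glucan synthase, had signals of 245, 207 and 683 in KF7, 744, 526 and 1017 in NBRC1958 and 818, 555 and 1161 in NBRC2018. CLB6, an S-phase cyclin, had signals of 86.96, 179.7 and 213 in KF7, 230.2, 256 and 237 in NBRC1958 and 312, 242 and 291 in NBRC2018, and PCL1, a G1 cyclin, had signals of 67.5, 126 and 176 in KF7, 137, 112 and 158 in NBRC1958 and 334, 177 and 258 in NBRC2018. YOX1, a repressor acting at the end of G1, had signals of 151, 251 and 341 in KF7, 334, 300.1 and 343 in NBRC1958 and 426, 325 and 395 in NBRC2018. Other members went the other way, such as the daughter cell wall enzyme SCW11, with a log2 difference of -1.03 at 60 against 0 g/L in KF7, and the cell wall protein PIR1, with -0.81. In KF7 CLB6, PCL1 and YOX1 had their lowest signal at 0 g/L, below both other strains, and were within the range of the others or just under it at 60 g/L. Of the 12 genes 2-fold higher in KF7 alone by this sorting, 6 were below both other strains at 0 g/L and 1 was above both. At 60 g/L, 3 were below and 7 above. The sorting used these same 0 and 60 g/L signals, so the counts describe the genes and support nothing.

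By the same sorting, 3 genes were 2-fold lower in KF7 with small differences in both others. ALD6, the main cytosolic acetaldehyde dehydrogenase, had signals of 4791, 3478 and 1436 in KF7, 1592, 1319 and 2055 in NBRC1958 and 1594, 1242 and 1507 in NBRC2018. At 0 and 20 g/L KF7 stood above every ALD6 signal of the other strains, and at 60 g/L it was below both. COQ2, of ubiquinone synthesis, had signals of 572, 472 and 264 in KF7, 400.5, 313 and 289 in NBRC1958 and 431, 383 and 341 in NBRC2018, and BIO2, biotin synthase, had signals of 952, 914 and 461 in KF7, 491, 378 and 352 in NBRC1958 and 785, 835 and 607 in NBRC2018. All 3 had their lowest KF7 signal at 60 g/L.

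**Figure D3:**
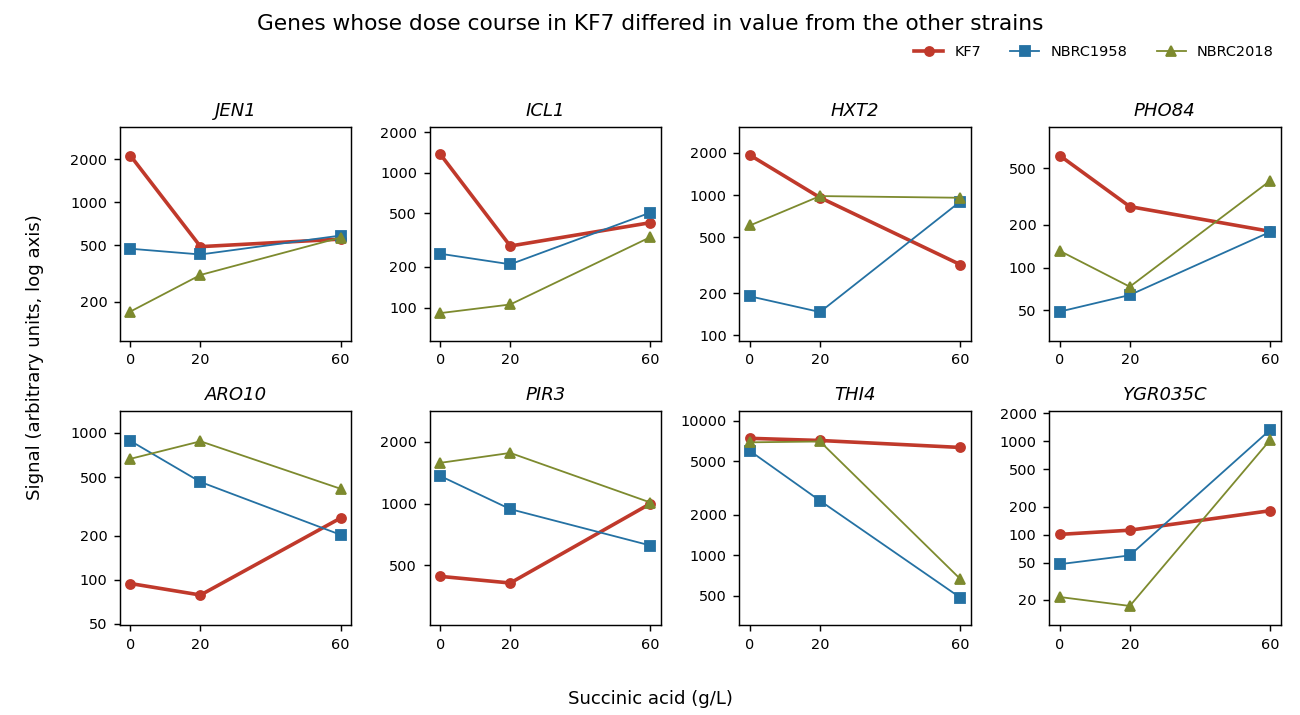
Signal (log axis) of 8 genes against succinic acid dose in KF7 (red circles), NBRC1958 (blue squares) and NBRC2018 (green triangles), 1 array per point. JEN1, ICL1 and PHO84 were highest in the KF7 array at 0 g/L. ARO10 and PIR3 were lower in KF7 than in both other strains at 0 and 20 g/L. THI4 kept a signal of 6336 at 60 g/L in KF7, against 483 in NBRC1958 and 665.5 in NBRC2018.

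Genes for thiamine (vitamin B1) had the widest gap in median response between KF7 and the others among the lists. Of 14 thiamine and vitamin B6 genes, 3 were 2-fold lower at 60 g/L in KF7, 12 in NBRC1958 and 13 in NBRC2018. The medians were -0.507, -2.24 and -2.77. THI4, which makes the thiazole part of the vitamin, had signals of 7408, 7139.6 and 6336 in KF7, 5971, 2542 and 483 in NBRC1958 and 6917, 7018 and 665 in NBRC2018. THI2, an activator of the pathway, had signals of 486, 685 and 561 in KF7, 864, 737 and 231 in NBRC1958 and 765, 721 and 159 in NBRC2018, and THI73, a transporter regulated with it, had signals of 1367, 2145 and 1251 in KF7, 919, 732 and 162 in NBRC1958 and 1246, 1463 and 167 in NBRC2018. At 60 against 0 g/L the log2 differences in KF7 were -0.22, 0.20 and -0.13. They were -3.58, -1.83 and -2.40 in NBRC1958 and -3.35, -2.16 and -2.79 in NBRC2018. The differences in response between KF7 and the others were 3.24 ± 0.51 for THI4, 2.20 ± 0.25 for THI2 and 2.47 ± 0.39 for THI73 on the log2 scale (SE), with limma's adjusted p 0.27, 0.201 and 0.27.

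The response in NBRC1958 was under way at 20 g/L, where 6 of the 14 genes were 2-fold lower, against 0 in KF7 and 0 in NBRC2018. The 3 that were 2-fold lower at 60 g/L in KF7 were THI22, SNZ3 and SNO3. SNZ3 and SNO3 were read by probe sets shared with near-identical copies and THI22 has close relatives, so the share of each copy is uncertain. A further 3 genes, THI72, SNZ1 and SNO1, were below the level filter and were also lower at 60 against 0 g/L in KF7, by log2 differences of -2.21, -2.20 and -1.62. They were -0.71, -0.97 and -0.51 in NBRC1958 and -0.18, -0.49 and -0.25 in NBRC2018, so the lower genes of KF7 were not those of the other strains in every case. SNZ3, of vitamin B6 synthesis, had signals of 3517, 3188 and 1304 in KF7, 3557, 1431 and 422 in NBRC1958 and 2956, 2962 and 286 in NBRC2018. PDC5, a pyruvate decarboxylase that needs thiamine, had signals of 3623, 3896 and 2492 in KF7, 3249, 1531 and 489.6 in NBRC1958 and 3099, 3499 and 1191 in NBRC2018 and was lower at 60 g/L by -0.54 in KF7, -2.69 in NBRC1958 and -1.37 in NBRC2018.

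YGR035C, a small open reading frame whose function is not described here, had the smallest p of the comparison at 60 g/L. It had signals of 101, 112 and 181 in KF7, 48.3, 59.97 and 1324 in NBRC1958 and 21.5, 17.2 and 1029.7 in NBRC2018. The log2 difference was 0.75 in KF7, 4.38 in NBRC1958 and 4.80 in NBRC2018, a gap of -3.84 ± 0.35 (SE) with limma's adjusted p 0.17. KF7 had the highest signal at 0 and 20 g/L and the lowest at 60 g/L.

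Other responses that were small in KF7 differed in where KF7 stood at 0 g/L. NCE103, carbonic anhydrase, had signals of 3390.5, 2562 and 4028 in KF7, 1679, 2589 and 6013 in NBRC1958 and 521, 671 and 4206 in NBRC2018. KF7 was already at least 2-fold above both others at 0 g/L and below both at 60 g/L, by a log2 of -0.58 against NBRC1958 and -0.06 against NBRC2018. EXO84, a subunit of the exocyst, had signals of 94.8, 98.9 and 139 in KF7, 95.4, 124 and 587 in NBRC1958 and 109.6, 112 and 338 in NBRC2018, with like signals in the 3 strains at 0 g/L and KF7 lowest at 60 g/L. IMA1, an isomaltase, had signals of 62, 62.3 and 89.8 in KF7, 437, 315 and 1449 in NBRC1958 and 197, 341 and 826 in NBRC2018 and was lowest in KF7 at every dose. PRY1, a secreted sterol-binding protein, had signals of 757, 843 and 838 in KF7, 1783, 1493 and 559.8 in NBRC1958 and 1644, 1645 and 734 in NBRC2018. PRY1 was near level in KF7, below the others at 0 g/L and slightly above them at 60 g/L.

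By the sorting above, 7 genes had opposite differences. ARO10 and PIR3, already described, were higher at 60 g/L in KF7 and lower in the others. HXT2, PHO84, ICL1, YNL194C and ECM13 were lower in KF7 and higher in the others. HXT2, a high-affinity glucose transporter, had signals of 1929, 960.1 and 319 in KF7, 189.6, 146 and 899 in NBRC1958 and 607, 984 and 957 in NBRC2018. Its log2 difference at 60 against 0 g/L was -2.54 in KF7, 2.15 in NBRC1958 and 0.64 in NBRC2018. ICL1, isocitrate lyase of the glyoxylate cycle, had signals of 1376, 286 and 426 in KF7, 251, 209 and 507 in NBRC1958 and 90.9, 105 and 333 in NBRC2018. PHO84, the high-affinity phosphate transporter, had signals of 614, 268 and 179.8 in KF7, 48.96, 64.1 and 178 in NBRC1958 and 131, 73.3 and 407 in NBRC2018. For these 3 genes the KF7 array at 0 g/L held the highest signal of all 9 arrays.

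The limma difference in response at 60 against 0 g/L was -2.99 ± 0.32 for ICL1, -3.24 ± 0.45 for PHO84 and -3.93 ± 0.93 for HXT2 (log2, SE), with adjusted p 0.201, 0.246 and 0.454. YNL194C, a membrane protein, had signals of 963, 290.2 and 389 in KF7, 1061, 771 and 2067 in NBRC1958 and 135, 186 and 387 in NBRC2018. ECM13, whose function is not described here, had signals of 1587, 1598 and 855 in KF7, 645, 943 and 1399 in NBRC1958 and 189.7, 561 and 734 in NBRC2018. At 0 g/L, 4 of the 5 genes lower in KF7 were above both other strains, YNL194C being the exception, against 1029 of all 4359 genes. At 60 g/L 1 of the 5, HXT2, was below both and 0 were above both. The 5 genes were chosen on these same signals, so the counts describe them and support nothing.

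Some genes for carbon sources other than glucose were highest in the KF7 array at 0 g/L. Of 10 glyoxylate cycle and gluconeogenesis genes above the level filter, 3 were at least 2-fold above both other strains there. JEN1, the lactate and pyruvate permease, had signals of 2119.6, 487 and 550.5 in KF7, 471, 429 and 583 in NBRC1958 and 171, 309 and 565 in NBRC2018. The KF7 array at 0 g/L stood above all others, and at 60 g/L KF7 lay near both other strains. It was near NBRC1958 at 20 g/L and above NBRC2018 there by a log2 of 0.63. IDP2, a cytosolic isocitrate dehydrogenase, had signals of 621, 244 and 301 in KF7, 300.4, 352 and 353 in NBRC1958 and 101, 146 and 258 in NBRC2018, and ATO2, a membrane protein of the acetate and ammonium transporter family, had signals of 423, 129.6 and 223 in KF7, 299, 229.6 and 393 in NBRC1958 and 124, 137 and 212 in NBRC2018. In KF7, the 0 g/L signal was the highest of the 3 doses for these genes as for ICL1.

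With dose, 3 of the 10 genes (ICL1, JEN1 and IDP2) were 2-fold lower and 1 (PCK1) 2-fold higher in KF7 at both 20 and 60 g/L. The median log2 difference in KF7 was -0.634 at 20 g/L and -0.114 at 60 g/L. In NBRC1958 it was 0.077 and 0.314, with 2 genes 2-fold higher and 0 lower at 60 g/L. In NBRC2018 it was 0.506 and 1.48, with 7 higher and 0 lower. PCK1, which commits carbon to gluconeogenesis, had signals of 206, 541 and 1077 in KF7, 408, 714 and 1589 in NBRC1958 and 65.3, 154 and 776 in NBRC2018, higher at each step of dose in all strains. Another 6 genes of the list (FBP1, SFC1, CAT8, SIP4, ADY2 and ADH2) were below the level filter and outside these counts. They were named after their values were seen, and in KF7 their log2 differences at 20 against 0 g/L ran between -1.71 and -0.36. FBP1, a gluconeogenic phosphatase, had signals of 221, 89.3 and 138 in KF7, 143, 143 and 129 in NBRC1958 and 50.03, 53.1 and 173 in NBRC2018.

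The level of the same genes relative to the other strains moved with dose. The median KF7 level of the 10 genes at 0 g/L was above NBRC1958 by a log2 of 0.125 and above NBRC2018 by 1.51. At 20 g/L the median differences were -0.445 and 0.459, and at 60 g/L -0.230 and 0.070. The general stress genes of KF7 at 0 g/L lay below NBRC1958 by a median of -0.509 and above NBRC2018 by 1.27. KF7 at 0 g/L thus stood between the others in stress genes, above them in JEN1, ICL1 and IDP2, and below both in the median of heat shock genes (-0.426 against NBRC1958 and -0.109 against NBRC2018).

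**Figure D4:**
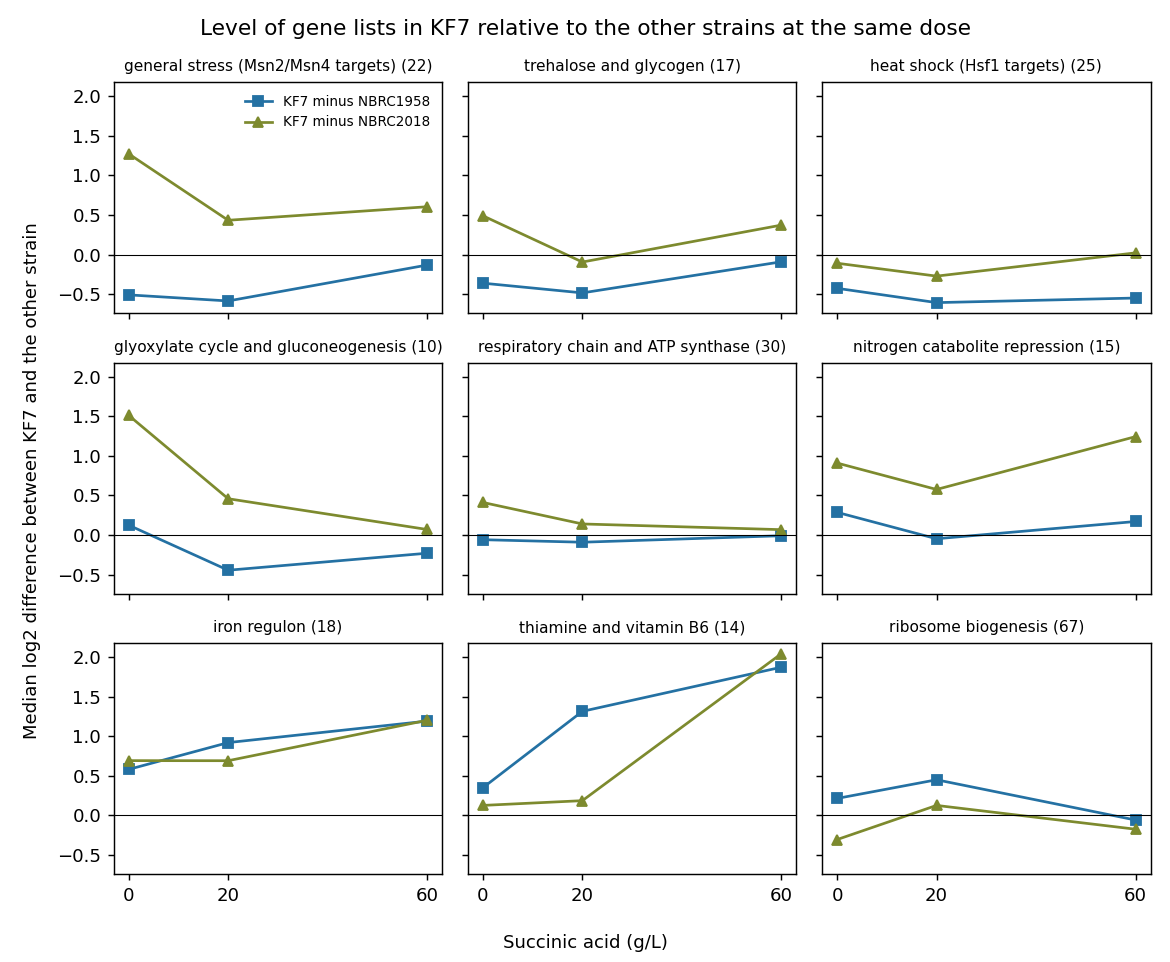
Median log2 difference in level between KF7 and NBRC1958 (blue squares) or NBRC2018 (green triangles) at each dose for 9 gene lists, with the number of genes measured in brackets. The glyoxylate and gluconeogenesis list was 1.51 above NBRC2018 at 0 g/L and 0.070 above it at 60 g/L, and the thiamine list was 1.87 above NBRC1958 and 2.04 above NBRC2018 at 60 g/L.

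Counted over all genes, 42 were at least 2-fold above both other strains in KF7 at 0 g/L and 24 at least 2-fold below both. NBRC1958 had 36 and 16 in that place, and NBRC2018 had 17 and 75. Of the 42, 26 were still 2-fold above both at 20 g/L and 25 at 60 g/L, and of the 24, 16 and 11 were still below. Part of the KF7 profile at 0 g/L was therefore present at all doses. SUC2, invertase, had signals of 1565, 1608 and 2569 in KF7, 249, 118 and 247 in NBRC1958 and 104, 249 and 249 in NBRC2018, and QDR2, a drug and cation exporter, had signals of 779.5, 964 and 1216 in KF7, 125, 174 and 250.0 in NBRC1958 and 60.6, 72.3 and 136 in NBRC2018. ALD3, a cytosolic aldehyde dehydrogenase, had signals of 619, 513 and 1142 in KF7, 60.1, 56.1 and 58.6 in NBRC1958 and 110.0, 185 and 266 in NBRC2018. These 3 were at least 2-fold above both other strains in KF7 at every dose.

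YLL053C had signals of 1261, 615 and 416 in KF7, 107, 122 and 184 in NBRC1958 and 118, 83.6 and 163 in NBRC2018, and its gap to the others narrowed with dose. CHL4, a kinetochore protein, had signals of 34.9, 30.1 and 32.7 in KF7, 347, 337 and 288 in NBRC1958 and 241, 252 and 206 in NBRC2018, low at every dose in KF7. YNR071C, whose sequence resembles the epimerase Gal10, had signals of 1657, 758 and 1992 in KF7, 98.1, 95.9 and 391 in NBRC1958 and 49.7, 61.4 and 118 in NBRC2018, and DSF1, a mannitol dehydrogenase with a near-identical copy, had signals of 1181, 516 and 1433 in KF7, 135, 104 and 533 in NBRC1958 and 49.6, 95.8 and 131 in NBRC2018. Both were above the other strains at every dose and lowest at 20 g/L in KF7.

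The 27 genes 2-fold lower at 20 than at 0 g/L in KF7 had their highest KF7 signal at 0 g/L in 22 cases, and 20 were above both other strains at 0 g/L, against 1029 of all 4359 genes. Above both there were 11 at 20 g/L and 8 at 60 g/L. The genes were chosen for a higher signal at 0 than at 20 g/L in KF7, so these counts describe them and support nothing. Of the 27, 0 were 2-fold lower at 20 g/L in NBRC1958 or NBRC2018, where 21 and 6 were lower by any amount. At 60 g/L, 9 of the 27 were still 2-fold lower in KF7 and 11 were back within 0.5.

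The genes that returned at 60 g/L include some of proline and glycine metabolism and of stationary phase. PUT1, proline oxidase, had signals of 654, 131 and 531 in KF7, 218, 123 and 739.6 in NBRC1958 and 169, 82.6 and 179 in NBRC2018. DDR2, a stress protein, had signals of 1964, 626 and 1479.6 in KF7, 3298, 2192 and 4467 in NBRC1958 and 393, 429 and 2855 in NBRC2018, and SPG1, needed for survival in stationary phase, had signals of 708, 224 and 627 in KF7, 394, 304 and 434 in NBRC1958 and 68.4, 84.6 and 256 in NBRC2018. FMP45, a membrane protein of the eisosome region, had signals of 477, 142 and 384 in KF7, 645, 646 and 543 in NBRC1958 and 51.4, 94.2 and 133 in NBRC2018, and AGX1, which makes glycine from glyoxylate, had signals of 599.9, 255 and 669.5 in KF7, 822, 539 and 717 in NBRC1958 and 208, 236 and 407 in NBRC2018. All 5 were lowest at 20 g/L in KF7. PUT1 was lowest at 20 g/L in both other strains too, and DDR2, SPG1 and AGX1 in NBRC1958, each less than 2-fold below the 0 g/L array. BAP2, an amino acid permease, had signals of 266, 101 and 148 in KF7, 549, 713 and 731 in NBRC1958 and 385, 466 and 687 in NBRC2018, lower at 20 g/L in KF7 and higher there in both others. The limma difference of BAP2 at 20 against 0 g/L was -1.59 ± 0.27 (log2, SE), with unadjusted p 0.00109 and adjusted p 0.997.

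Ribosome biogenesis genes, which follow growth rate, moved the other way at 20 g/L. All 67 genes of the list were above their 0 g/L level in KF7, against 2348 of all 4359, by a median of 0.348, with 2 of them at least 2-fold higher. In NBRC1958 61 were above, by a median of 0.185, and in NBRC2018 17, with a median of -0.058. UTP18, of small subunit assembly, had signals of 173, 404 and 217 in KF7, 192, 244 and 277 in NBRC1958 and 338, 344 and 284 in NBRC2018, and RRP36, of the same process, had signals of 115, 281 and 221 in KF7, 175, 251 and 271 in NBRC1958 and 278, 260.3 and 271 in NBRC2018. CGR1, of ribosomal RNA processing, had signals of 163, 350.2 and 224 in KF7, 222, 286 and 215 in NBRC1958 and 348, 311 and 311 in NBRC2018. In KF7 these genes, named for their large differences, were lowest at 0 g/L, below both other strains, and highest at 20 g/L. The whole list at 0 g/L was above NBRC1958 by a median of 0.215 and below NBRC2018 by a median of -0.305. MAK16, of large subunit assembly, had signals of 273, 319 and 158 in KF7, 161, 186 and 107 in NBRC1958 and 262, 248 and 149.5 in NBRC2018 and was lowest at 60 g/L in KF7. At 60 g/L the list's median was -0.087 in KF7. Of 30 respiratory chain genes, 0 were above their 0 g/L level at 20 g/L in KF7, with a median of -0.222. In NBRC1958 there were also 0 (-0.229), and in NBRC2018 25 (0.075).

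**Figure D5:**
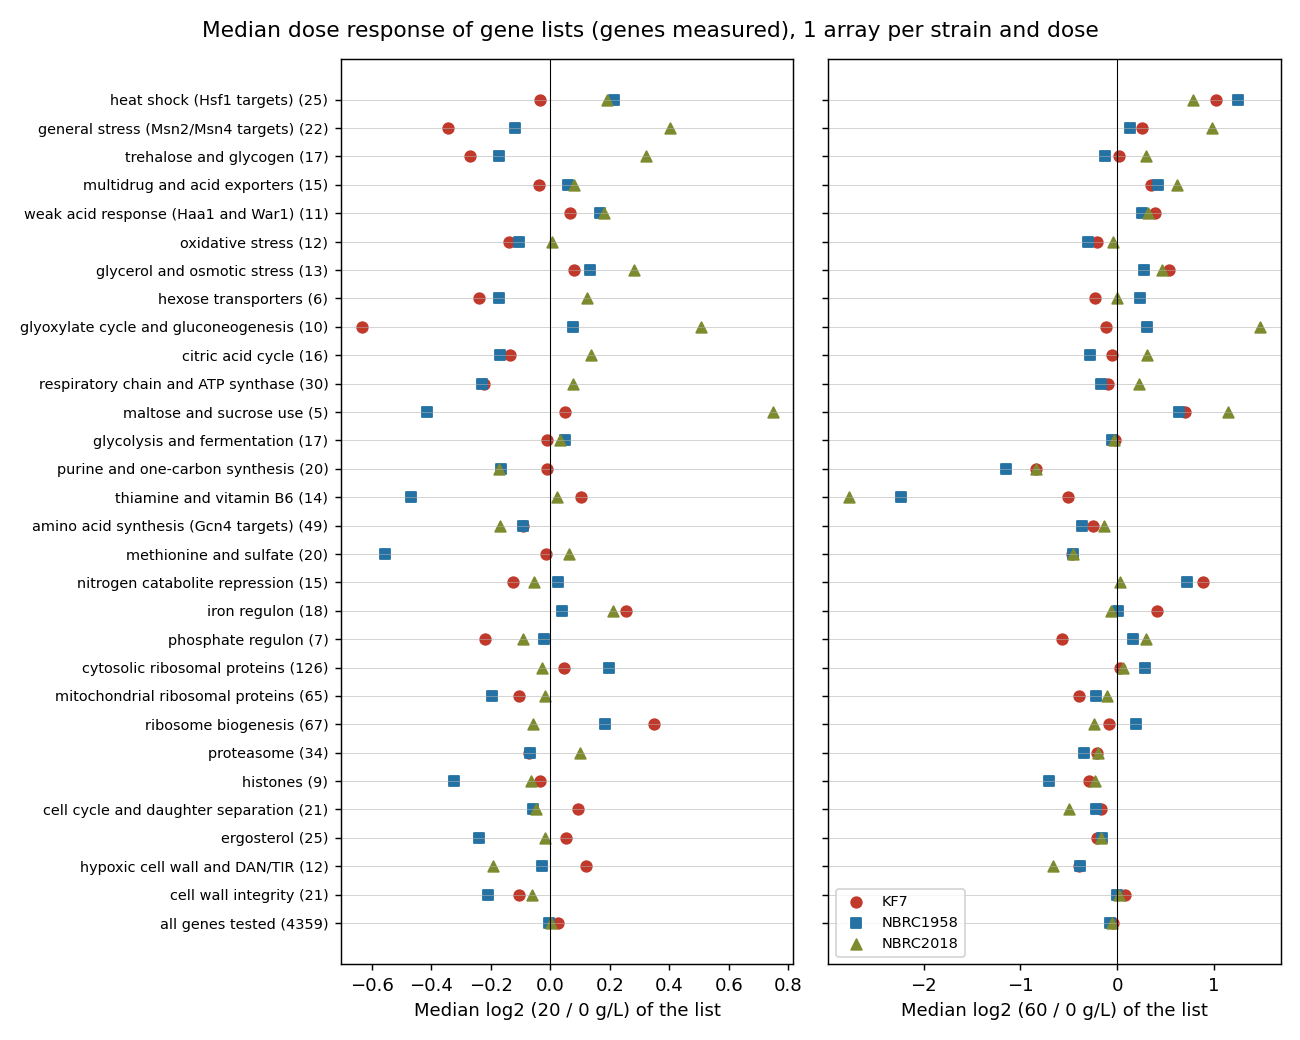
Median log2 difference at 20 against 0 g/L (left) and 60 against 0 g/L (right) of gene lists with at least 5 genes measured (number in brackets), in KF7 (red circles), NBRC1958 (blue squares) and NBRC2018 (green triangles). In KF7 the glyoxylate and gluconeogenesis list was at -0.634 and the ribosome biogenesis list at 0.348 at 20 g/L, and the heat shock list was at 1.02 at 60 g/L.

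With 1 array behind each dose, the state of the single KF7 culture at 0 g/L and the effect of the acid cannot be told apart in these comparisons.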

How the data were processed

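Gene expression was read on 9 one-colour arrays, 1 per strain and dose, and each array's strain and dose came from the labels. The authors deposited intensity values on a linear scale, summarized per probe set and already normalized; the array medians were nearly equal and this normalization was kept. The scanning, summary and normalization methods are not given in the sources used here. A platform annotation from 2016 gave a single yeast gene for 5498 of 10928 probe sets, standing for 5449 genes. For 47 genes with several probe sets the one with the highest mean was used. The 1090 genes with the lowest mean of log2(intensity + 16) were left out, leaving 4359.

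Counts of genes at least 2-fold apart between arrays of 1 strain are descriptions. The difference in response between KF7 and the other strains was tested with limma 3.58.1 in R 4.3.3 (lmFit, eBayes) on all 9 arrays. Each KF7 array had its own mean, and NBRC1958 and NBRC2018 had additive strain and dose terms, which left 2 residual degrees of freedom (prior degrees of freedom 3.91). P-values were adjusted by Benjamini-Hochberg over all genes at 0.05, two-sided. The 3 contrasts share arrays. The spread behind the p-values is that of the NBRC1958 and NBRC2018 arrays around a shared dose response, moderated over genes. Each KF7 array was assumed to vary like theirs. The labels do not state that the RNAs are from independent cultures, so p-values hold only for these samples. The number of arrays limits the precision.

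The gene lists (32), the sorting rules and the rule for named genes were chosen with earlier results of these data known. Named genes were the largest differences of each comparison and class, the smallest p-values, up to 4 members of each list and a fixed set (174 genes). The test at 60 against 0 g/L was run on simulated data with 200 changed genes. It recovered 15% of them at a log2 change of 1 and 88% at a log2 change of 2. In the data 0 genes passed, although YGR035C and HXT2 differed by -3.84 and -3.93. The SE of HXT2 was 0.93, against a median SE of 0.225 over all genes. The simulated shares therefore do not tell how many real differences of that size were missed. The alternatives were quantile normalization, offsets, filters, other fits and leaving out each array.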

Additional observations from a re-analysis of the deposited data

Results flagged for a closer look

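Of the dose responses, 7 passed the size limits for opposite signs in KF7 and both other strains at 60 against 0 g/L. Other reversals of sign fell outside these limits, such as JEN1, at -1.91 in KF7, 0.30 in NBRC1958 and 1.64 in NBRC2018. The log2 difference in KF7 was 1.34 for ARO10 and 1.15 for PIR3, and it was -2.54 for HXT2, -1.69 for PHO84, -1.65 for ICL1, -1.27 for YNL194C and -0.88 for ECM13. With 1 array per strain and dose these signs had no replicate, and the limma difference between KF7 and the others passed for 0 of the 7 after adjustment. All 7 had an unadjusted p under 0.05, having been chosen on the same values.

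Outside the genes compared, 23 of 3683 probe sets without a gene name were at least 2-fold higher at 60 than at 0 g/L in KF7 and 3 were lower. Among 1090 genes below the level filter, 37 were at least 2-fold higher and 21 lower. Of 1746 probe sets made for another organism, 0 differed 2-fold in KF7.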

How the results depend on the processing

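Among the genes named, 2377 values moved by less than the spread between arrays in the fit and 59 by more. A change of sign was looked for only in differences of at least 2-fold, and 0 of those reversed. Quantile normalization left 1 gene with a larger difference in KF7. An offset of 64 left 2 genes higher at 20 g/L, 0 with a larger difference and 7 that were 2-fold in KF7 alone, and 1 gene, YGR035C, passed the test at 60 g/L. With no level filter, 52 genes were lower at 20 g/L, 26 were 2-fold in KF7 alone and 57 differed 2-fold between KF7 and the others in the 20 g/L response. With the lowest 50% left out, 56 genes were higher at 60 against 0 g/L and 56 against 20 g/L, 2 were higher and 12 lower at 20 g/L, 8 were 2-fold in KF7 alone and 13 small in KF7 alone. There, 57, 20 and 33 genes were 2-fold apart between KF7 and the others in the 60 g/L response, the 20 g/L response and the 0 g/L array, with fewer genes tested.

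Set against NBRC1958 alone, 157 genes were 2-fold apart in the 60 g/L response, and against NBRC2018 alone 68 in the 20 g/L response. Leaving out each array of the other strains in turn, the genes past the test ran between 15 and 56 for 60 g/L, 0 and 2 for 20 g/L (2, ICL1 and JEN1, once the untreated NBRC1958 array was dropped) and 0 and 8 for the 0 g/L array. Genes 2-fold apart ran between 32 and 79 for 20 g/L. A straight line on dose without the KF7 array at 0 g/L gave 216 genes apart and 3 past the test. These were TKL2, TMT1 and YML131W, the last named after its value was seen. There the KF7 slope rests on the 20 and 60 g/L arrays alone and is extended to a span of 60 g/L. Its count of genes apart is therefore unlike those for 60 against 0 g/L. The line with all arrays gave 0 past the test, with 299 at an unadjusted p under 0.05. An intensity trend and a robust fit gave 0 as well, with 259 and 258. The causes were not tested. No paired analysis was possible because each group had 1 array.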

Other observations

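Of 3 flocculation genes measured, which bind cells into clumps, 2 were several-fold lower in KF7 than in NBRC1958 at 0 g/L. FLO1 had signals of 159, 273 and 265 in KF7, 1100.1, 992 and 548 in NBRC1958 and 114, 159 and 29.6 in NBRC2018. FLO11, of surface adhesion, had signals of 255, 267 and 354 in KF7, 2387, 2389.6 and 1017 in NBRC1958 and 83.5, 84.3 and 123 in NBRC2018. The third, FLO9, read by a shared probe set, had signals of 2135, 2496 and 2246 in KF7, 3398, 3522 and 2135 in NBRC1958 and 2084, 2397 and 1600.1 in NBRC2018, closer between the strains. At 60 against 0 g/L FLO1 and FLO11 were higher by value in KF7 (log2 0.69 and 0.45), while in NBRC1958 they were lower (-0.99 and -1.22) and in NBRC2018 FLO1 was lower (-1.51) and FLO11 higher (0.49). Neither difference between KF7 and the others passed limma's test after adjustment (adjusted p 0.41 and 0.88).

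Methionine genes also split in KF7. MET2, which starts homoserine into methionine, had signals of 133, 236 and 513 in KF7, 177, 105 and 258 in NBRC1958 and 225, 225 and 215 in NBRC2018. MET3, which activates sulfate, had signals of 2888, 2758 and 1167 in KF7, 999, 404 and 241 in NBRC1958 and 1464, 2062 and 453 in NBRC2018. Across the KF7 doses MET2 was highest and MET3 lowest at 60 g/L. Of 20 genes of methionine and sulfate use, 3 were 2-fold higher and 1 lower at 60 g/L in KF7, against 2 and 6 in NBRC1958 and 1 and 3 in NBRC2018, with medians of -0.462, -0.456 and -0.452.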
